A study of Saccharomyces cerevisiae with 6 samples.

Results

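The aminoacyl-tRNA synthetase genes of budding yeast were examined in cells whose histone H2B carried a lysine 37 to alanine change. These were 34 of the 5449 genes tested on the arrays, and comprised 20 genes for cytosolic enzymes and 14 genes for mitochondrial enzymes. They were picked by name from the annotation of the array and not by a cutoff on their values, though with earlier results of these data known. Each of the 34 was read by a single probe set, a group of short probes to the same transcript. RNA came from 3 H2B K37A cultures (strain YKG007) and 3 wild-type H2B cultures (strain YKG001), grown side by side in YPD, a rich glucose medium, to mid-exponential phase at an OD600 of 1.0. Both strains were MATa, with both chromosomal H2A-H2B gene pairs deleted ((hta1-htb1)D::LEU2 and (hta2-htb2)D::TRP1) and the further alleles leu2D1, ura3-52, lys2D1, lys2-128d, his3D200 and trp1D63, where D stands for a deletion. H2A and Flag-tagged H2B came from a HIS3 plasmid alone, pKG2 with htb1 (K37A) in the mutant and pZS145 with HTB1 in the wild type. Each group was a single strain, and the comparison asks whether cells without this lysine differed in the transcripts that supply charged tRNA.

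Aminoacyl-tRNA synthetases join each amino acid to its own tRNA and so set the reading of the genetic code. They fall into class I and class II, which differ in the fold of the catalytic domain. Yeast translates in both the cytosol and the mitochondrial matrix, and for most amino acids separate nuclear genes encode an enzyme for each place. *ALA1*, *GRS1*, *HTS1* and *VAS1* each supply both compartments from a single gene by use of alternative start sites. The cytosolic enzymes are needed for growth in any medium, whereas loss of a mitochondrial enzyme leaves cells unable to respire and prone to lose mitochondrial DNA. Uncharged tRNA is sensed by the kinase Gcn2, which raises translation of the activator Gcn4.

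The unit throughout is the log2 signal that the authors computed by RMA for each probe set and array, and a difference is always H2B K37A minus wild-type H2B. Median signals of the arrays were 11.05 to 11.10, and the correlation across genes was 0.984 to 0.996 between strains and at least 0.994 within a strain. *HTB1*, the H2B gene of the plasmid, had 14.42 ± 0.02 in H2B K37A cells and 14.48 ± 0.01 in wild-type cells (SD, n = 3 each), a level that does not check the altered codon, and *ACT1*, the actin gene, had 14.41 and 14.42. All 5 a-cell genes examined (*STE2*, *MFA1*, *MFA2*, *BAR1* and *AGA2*) lay above the background level of 6.30, set from probe sets not matched to S. cerevisiae. Of the 4 genes of alpha cells examined, *MF(ALPHA)1* lay below it and the others lay above it. *SAG1* was higher in H2B K37A cells (difference 0.22, adjusted p = 0.0463 from limma), a call that was not followed through the alternatives. *STE3* went the other way without passing (difference -0.20, adjusted p = 0.0506 from limma). *MF(ALPHA)1* and *MF(ALPHA)2* had differences of 0.021 and 0.060. Across all 5498 probe sets, limma called 798 at a Benjamini-Hochberg adjusted p of 0.05, 14.5%, with 6.44% higher and 8.08% lower in H2B K37A cells. Counts from this fit are to be read against these shares.

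None of the 34 synthetase genes examined, of either compartment, passed the test. The arrays read bulk RNA, in which fewer cells with a transcript and less of it per cell cannot be told apart. Of the 20 cytosolic genes 0 were called by limma, with 0 at an unadjusted p under 0.05, and of the 14 mitochondrial genes 0 were called, with 6 at an unadjusted p under 0.05 (1 higher and 5 lower), where the unadjusted share over all probe sets was 35.0%. The median lay above 0 for the cytosolic genes and below 0 for the mitochondrial genes, a contrast that was not tested. The cytosolic genes had a median difference of 0.018, with 17 above 0 and 3 below, and the mitochondrial genes a median of -0.077, with 3 above 0 and 11 below, beside a median of 0.0020 over all probe sets. The mitochondrial median was -0.12 without H2B K37A replicate 1 and -0.044 without wild-type replicate 1, and the cytosolic median was 0.0036 without H2B K37A replicate 3. Leaving out both H2B K37A replicate 3 and wild-type replicate 1, which was decided on with the values in view, gave medians of -0.022 for the mitochondrial and 0.0072 for the cytosolic genes. In that fit 0 members were called, beside 2.35% of all probe sets.

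**Figure D1:**
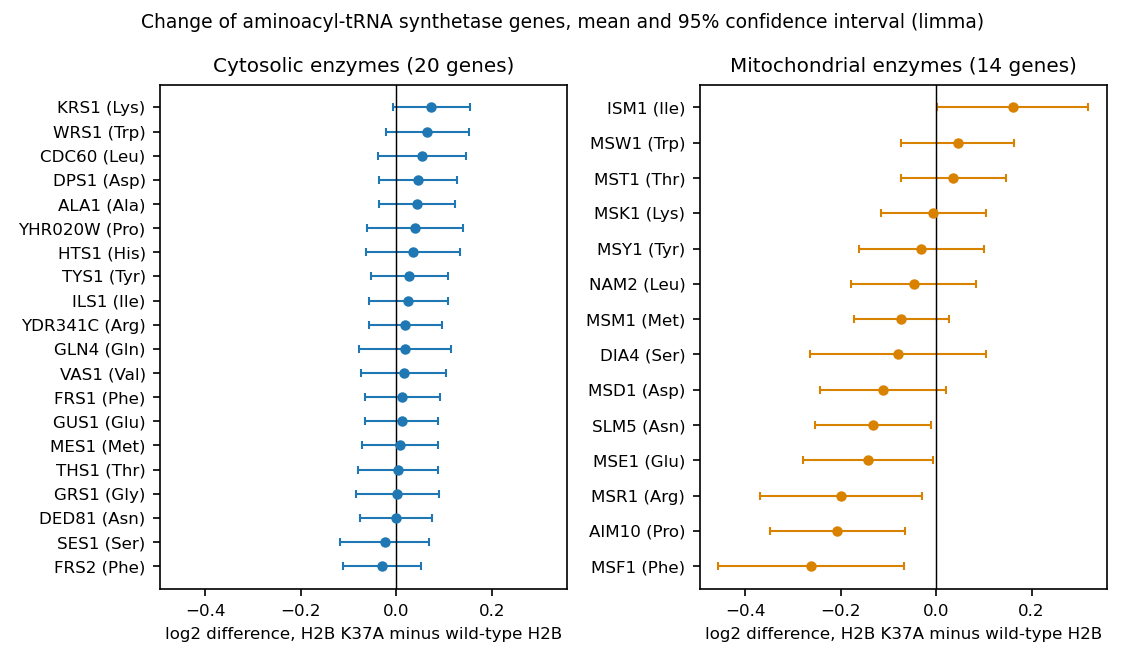
Log2 difference (H2B K37A minus wild-type H2B) of each synthetase gene, with its amino acid in brackets; points are differences of means over 3 arrays per strain and bars are 95% confidence intervals from limma. The cytosolic genes lie between -0.031 and 0.073 and the mitochondrial genes between -0.26 and 0.16.

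The cytosolic synthetase transcripts were close to equal in the strains. Their differences ran from -0.031 to 0.073, the median size of the difference was 0.025 beside 0.091 over all probe sets, and the 95% confidence interval held 0 for all 20. The largest fold within any interval was 1.11. The largest difference was that of *KRS1* (YDR037W), the lysyl-tRNA synthetase, with signals of 13.84, 13.84 and 13.89 on the H2B K37A arrays and 13.79, 13.76 and 13.80 on the wild-type arrays. Every mutant array lay above every wild-type array, and the difference of 0.073 (95% interval -0.0072 to 0.15) had a standard error of 0.034 and a limma adjusted p of 0.173. *WRS1* (YOL097C), the tryptophanyl-tRNA synthetase, had 12.96, 12.96 and 13.01 in H2B K37A cells and 12.88, 12.93 and 12.93 in wild-type cells. Its groups also did not overlap, with a difference of 0.065 and a limma adjusted p of 0.246 (standard error 0.036).

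*CDC60* (YPL160W), the leucyl-tRNA synthetase, had 13.57, 13.58 and 13.59 on the mutant arrays and 13.56, 13.47 and 13.55 on the wild-type arrays. The arrays of the strains were only narrowly separate, and the difference was 0.054 with a limma adjusted p of 0.363 (standard error 0.038), or 0.025 without wild-type replicate 2. *DPS1* (YLL018C), the aspartyl-tRNA synthetase, had 13.80, 13.79 and 13.83 in H2B K37A cells and 13.79, 13.77 and 13.74 in wild-type cells, a difference of 0.045 with a limma adjusted p of 0.392 (standard error 0.034). *ALA1* was the remaining gene of the 5 whose mutant arrays all exceeded the wild-type arrays. That is 5 of 20 genes higher without overlap and 0 lower, where 20.6% and 21.5% of all probe sets were so placed. The H2B K37A replicate 3 array was the highest mutant array for 19 of the 20 genes, and the mean of the 20, centred gene by gene, was -0.0044, -0.0042 and 0.041 on the mutant arrays and -0.0022, -0.018 and -0.012 on the wild-type arrays.

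Among the others, the alpha and beta subunits of the phenylalanyl enzyme, encoded by *FRS2* and *FRS1*, had differences of -0.031 and 0.013. *FRS2* and the seryl enzyme gene *SES1* (-0.025) were the lowest of the group. *DED81* and YHR020W, the asparaginyl and prolyl enzymes, are neighbours on chromosome VIII with no annotated gene between them and are transcribed away from each other, and their differences were -0.00090 and 0.039. The genes that serve both compartments lay at 0.044 for *ALA1*, 0.0020 for *GRS1*, 0.034 for *HTS1* and 0.015 for *VAS1*. *MES1* and *GUS1*, whose methionyl and glutamyl enzymes bind the cofactor Arc1, had 0.0072 and 0.011, and *ARC1* itself 0.015. *GUS1* also has a mitochondrial part, since its product enters mitochondria and charges the glutamine tRNA with glutamate. The threonyl (*THS1*), glutaminyl (*GLN4*), arginyl (YDR341C), isoleucyl (*ILS1*) and tyrosyl (*TYS1*) genes lay between 0.0025 and 0.027. By class, the 9 class I genes had a median of 0.019, all above 0, and the 11 class II genes a median of 0.013, with 8 above 0.

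The cytosolic synthetases are read by bright probe sets. Their mean signals of 12.9 to 14.1 fell between the 87.3 and 97.7 percentiles of the tested probe sets, whose highest was 14.8, and SDs between replicate arrays were small (median 0.024 in H2B K37A cells and 0.018 in wild-type cells). Of the 573 probe sets in that range of signal, 4.19% passed the test, against 14.5% of all. Whether bright probes close to saturation narrow the differences there was not tested.

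The mitochondrial synthetase transcripts varied more. Differences ran from -0.26 to 0.16, the median size was 0.095, and the interval held 0 for 8 of 14 genes and stayed within 1.5-fold for all 14. *MSF1* (YPR047W), the mitochondrial phenylalanyl-tRNA synthetase, had 9.57, 9.48 and 9.35 on the H2B K37A arrays and 9.87, 9.67 and 9.64 on the wild-type arrays. No mutant array reached the lowest wild-type array, and the difference was -0.26, a ratio of 0.834 with a limma adjusted p of 0.0718 (standard error 0.081, 95% interval -0.46 to -0.068). *AIM10* (YER087W), which encodes the mitochondrial prolyl enzyme by its similarity to other synthetases, had 10.91, 10.82 and 10.73 in H2B K37A cells and 11.10, 10.97 and 11.02 in wild-type cells. Its arrays were likewise separate, with a difference of -0.21, a ratio of 0.867 (standard error 0.059, 95% interval -0.35 to -0.065), and at 0.0608 it had the lowest adjusted p from limma of all 34 genes.

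*MSR1* (YHR091C), the mitochondrial arginyl enzyme, had 9.88, 9.62 and 9.68 on the mutant arrays and 9.94, 9.88 and 9.94 on the wild-type arrays. H2B K37A replicate 1 lay just below the lowest wild-type array, and the difference was -0.20, a ratio of 0.872, with a limma adjusted p of 0.101 (standard error 0.071). *MSM1*, the methionyl enzyme, was the only other gene with all mutant arrays lower, at a difference of -0.073 (adjusted p = 0.261 from limma), which made 4 of 14 genes lower without overlap, beside 21.5% of all probe sets. *MSE1*, the glutamyl enzyme, had 10.03, 9.90 and 9.85 in H2B K37A cells and 10.11, 10.02 and 10.08 in wild-type cells, and *SLM5*, the asparaginyl enzyme, had 9.90, 9.78 and 9.80 in H2B K37A cells and 10.01, 9.96 and 9.89 in wild-type cells. In both, a single mutant array, replicate 1, lay above the lowest wild-type array, and the differences of -0.14 and -0.13 had adjusted p of 0.132 and 0.119 from limma.

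*ISM1* (YPL040C), the mitochondrial isoleucyl enzyme, went the other way. It had 9.91, 9.92 and 10.13 on the H2B K37A arrays and 9.85, 9.79 and 9.84 on the wild-type arrays, all mutant arrays being higher, with a difference of 0.16, a ratio of 1.12 with a limma adjusted p of 0.139 (standard error 0.066, 95% interval 0.0026 to 0.32). It was the only mitochondrial gene higher without overlap, beside 20.6% of all probe sets. The difference was 0.088 without H2B K37A replicate 3, the array on which *ISM1* was highest. *MSW1* (tryptophanyl) and *MST1* had differences of 0.045 and 0.036. *MST1* encodes the threonyl enzyme, which in yeast mitochondria also charges the unusual tRNA that reads leucine codons of the standard code as threonine. The other genes lay below 0. *MSD1* (aspartyl) and *DIA4* (seryl) had -0.11 and -0.080, *NAM2*, a leucyl enzyme that also acts in the splicing of mitochondrial introns, had -0.047, *MSY1* (tyrosyl) had -0.030 and *MSK1*, a lysyl enzyme that also helps to import a tRNA, had -0.0053. The 7 class II genes had a median of -0.11 and the 7 class I genes a median of -0.047.

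**Figure D2:**
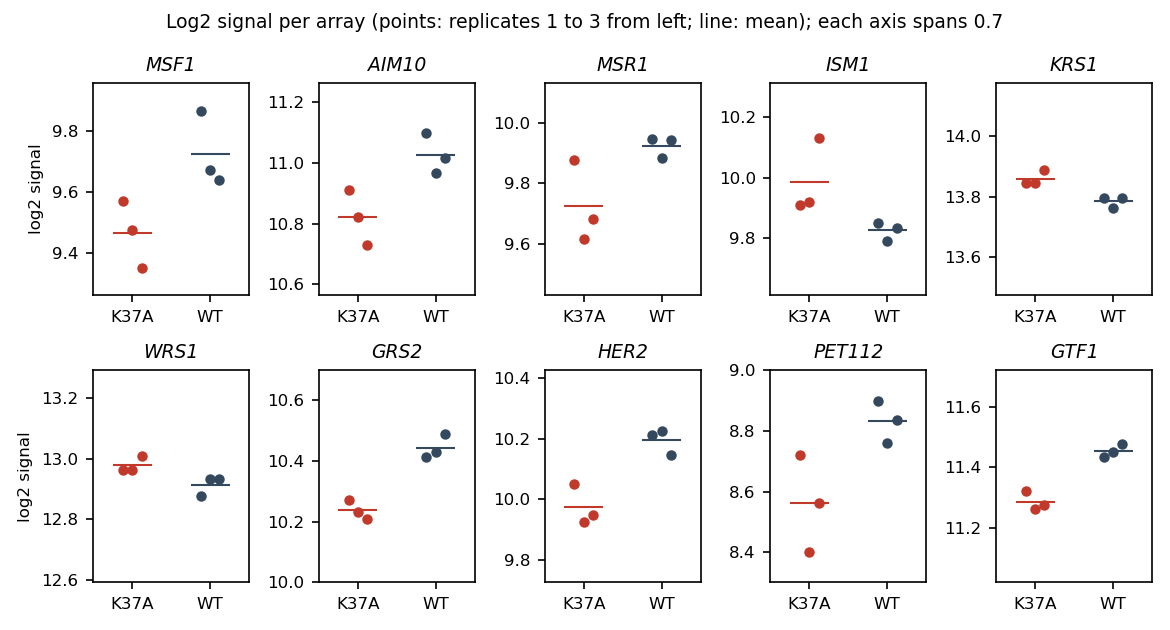
Log2 signal on each array for 6 synthetase genes, the glycyl enzyme copy GRS2 and the 3 amidotransferase genes HER2, PET112 and GTF1, with the H2B K37A arrays left of the wild-type (WT) arrays; points are replicates and lines are means of 3 arrays. For all 10 genes the arrays of the strains do not overlap, with KRS1, WRS1 and ISM1 higher and the others lower in H2B K37A cells. The 10 were picked for display and do not stand for all 34 members. Of all probe sets 20.6% were higher and 21.5% lower without overlap.

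Replicate 1 was the highest array within its strain for 13 of the 14 mitochondrial genes in H2B K37A cells and for 13 of 14 in wild-type cells. The centred mean of the 14 was 0.035, -0.073 and -0.074 on the mutant arrays and 0.094, 0.0015 and 0.017 on the wild-type arrays, so that H2B K37A replicate 1 lay above wild-type replicates 2 and 3 and the strains overlapped. Without H2B K37A replicate 1, limma called 4 mitochondrial genes, all lower, while in the same fit 1140 of the 5498 probe sets were called, 20.7%, with 11.2% lower. These were *MSF1*, *AIM10*, *MSR1* and *MSE1*, with differences of -0.31, -0.25, -0.27 and -0.20. No member was called when any other single array was left out, but those fits called few probe sets of any kind. The shares over all probe sets were 0.127% without H2B K37A replicate 2 and 9.11% without H2B K37A replicate 3. They were 1%, 0.0364% and 2.46% without wild-type replicates 1, 2 and 3. The mitochondrial synthetases had mean signals of 9.25 to 11.6, and of the 2791 probe sets in that range 16.7% passed the test.

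The enzymes of the same amino acid were then set side by side for the 14 amino acids that have a gene in each compartment, giving 15 pairs because the cytosolic phenylalanyl enzyme has both subunits. Only differences between strains were compared, since signals of different probe sets are not on a common scale. The mitochondrial gene had the lower difference in 13 of 15 pairs, and the median of mitochondrial minus cytosolic over the pairs was -0.10. The gap was -0.27 for *MSF1* and *FRS1*, -0.25 for *AIM10* and YHR020W, and -0.22 for *MSR1* and YDR341C. The exceptions were *ISM1* and *ILS1* at 0.14 and *MST1* and *THS1* at 0.034. In 8 pairs the mitochondrial minus cytosolic signal did not overlap between the H2B K37A arrays and the wild-type arrays, 7 of them with the mitochondrial gene relatively lower. *MSF1* enters these counts with both *FRS1* and *FRS2*. Of all single probe sets 20.6% were higher and 21.5% lower without overlap, and no such share was worked out for pairs of genes. As the cytosolic differences were small, the gaps largely repeat the mitochondrial differences. These pairs are a description and were not tested.

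**Figure D3:**
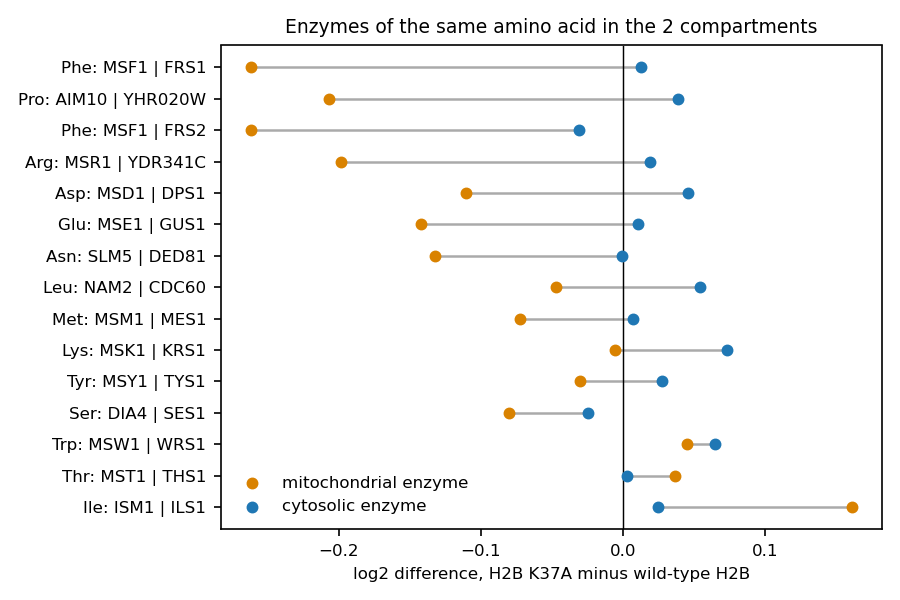
Log2 difference (H2B K37A minus wild-type H2B) of the mitochondrial and the cytosolic enzyme gene of each amino acid, named mitochondrial first on the vertical axis and joined by a line. Mitochondrial genes lie left of their cytosolic partners in 13 of 15 pairs, and ISM1 and MST1 lie to the right.

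Of the genes that work with the synthetases or stand outside the 34, *HER2*, *GTF1* and *GRS2* were lower in H2B K37A cells. Yeast mitochondria have no glutaminyl enzyme of their own and use an amidotransferase, made of the products of *HER2*, *PET112* and *GTF1*, to convert glutamate on the glutamine tRNA into glutamine. *HER2* had 10.05, 9.93 and 9.95 in H2B K37A cells and 10.21, 10.23 and 10.15 in wild-type cells, and fell to a ratio of 0.859, a difference of -0.22 with a limma adjusted p of 0.0336 (standard error 0.047). *GTF1* had 11.32, 11.26 and 11.27 in H2B K37A cells and 11.44, 11.45 and 11.48 in wild-type cells, and fell to a ratio of 0.890, a difference of -0.17 with a limma adjusted p of 0.0330 (standard error 0.035). *PET112* had 8.72, 8.40 and 8.56 in H2B K37A cells and 8.90, 8.76 and 8.84 in wild-type cells, a difference of -0.27 that did not pass (adjusted p = 0.0733 from limma). It passed in 3 of 15 alternatives, namely the replicate block, array weights and without H2B K37A replicate 1, with differences of -0.35 to -0.19 and adjusted p of 0.0161 to 0.238 over all 15. All 3 subunit genes had every mutant array below every wild-type array, as did 21.5% of all probe sets.

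*GRS2*, a second copy of the glycyl-tRNA synthetase gene that contributes little to growth in standard medium, had 10.27, 10.23 and 10.21 in H2B K37A cells and 10.41, 10.43 and 10.49 in wild-type cells. It fell to a ratio of 0.866, a difference of -0.21 with a limma adjusted p of 0.0264 (standard error 0.038), while *GRS1* differed by 0.0020. In all, 3 of the 5 measured genes of this list were lower, beside 8.08% of all probe sets. None was higher, and *PET112* and *ARC1* did not pass, with a median of -0.21. The calls of *HER2* and *GTF1* were lost when any array other than H2B K37A replicate 1 was left out, with adjusted p up to 0.117 and 0.118, and that of *GRS2* was lost without H2B K37A replicate 2 or any single wild-type array, with adjusted p up to 0.102, each from limma. All 3 calls were also lost when every probe set of the array was tested, with limma adjusted p of 0.0809, 0.0961 and 0.0682, and that of *GTF1* with the replicate block, at 0.0522. With a single array left out the differences were -0.26 to -0.20 for *HER2*, -0.19 to -0.16 for *GTF1* and -0.22 to -0.18 for *GRS2*. The cysteinyl enzyme gene *CRS1* was not analysed here.

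Other parts of the translation machinery were counted in the same fit. Of 70 genes of mitochondrial ribosomal proteins, 5 were higher in H2B K37A cells, 0 were lower and 65 did not pass. The share called was 7.14%, near the 6.44% of all probe sets that were higher. The median was 0.066, beside the median of -0.077 for the mitochondrial synthetases. *MRPL4* and *MRPL15*, of the large subunit, rose to ratios of 1.21 and 1.18 (standard errors 0.041 and 0.042, limma adjusted p of 0.0197 and 0.0235). Their calls were not followed through the alternatives. Of 29 mitochondrial translation factors and activators, 2 were higher and 2 lower, with a median of -0.057. The share called was 13.8%, near the 14.5% of all probe sets. *MTF2*, which acts on mitochondrial transcripts, and *SLM3*, which thiolates mitochondrial tRNAs, rose by 0.28 and 0.22 on the log2 scale. *CBS1*, an activator of cytochrome b translation, and *AIM23*, an initiation factor, fell by 0.29 and 0.24 on the log2 scale (standard errors 0.050, 0.051, 0.058 and 0.054 in the order named). All 4 calls were lost when H2B K37A replicate 2 or any single wild-type array was left out, that of *AIM23* also without H2B K37A replicate 3 and that of *SLM3* without H2B K37A replicate 1 or 3. They were lost too when every probe set of the array was tested, at limma adjusted p of 0.0515 for *MTF2*, 0.0940 for *SLM3*, 0.0615 for *CBS1* and 0.0852 for *AIM23*. None of these lists was tested against the synthetases.

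In the cytosol, 0 of 127 ribosomal protein genes were called, with a median of 0.0096 and 0 at an unadjusted p under 0.05 from limma. Of 37 translation factors 1 was higher (2.70%), 0 were lower and 36 did not pass, with a median of 0.029. The gene called was *RPG1*, a subunit of initiation factor eIF3, with a difference of 0.18 (standard error 0.045). Of 32 genes of tRNA processing, modification and export, 2 were higher, 0 were lower and 30 did not pass, with a median of 0.083. The share called was 6.25%, near the 6.44% of all probe sets that were higher. *DUS1*, a dihydrouridine synthase of tRNA, had 10.08, 10.25 and 10.64 in H2B K37A cells and 9.59, 9.82 and 9.75 in wild-type cells, and rose to a ratio of 1.52, a difference of 0.60 with a limma adjusted p of 0.0412 (standard error 0.14). *TAD3*, a subunit of the tRNA adenosine deaminase, rose to 1.14. Of 10 genes of uncharged tRNA sensing and its targets, 1 was higher (10%). This was *YIH1*, whose product competes with Gcn2 for its activator Gcn1, with a difference of 0.25 and a limma adjusted p of 0.0417 (standard error 0.059), whereas *GCN2* and *GCN4* had 0.067 and 0.0038, and the amino acid synthesis genes *HIS4* and *ARG1*, which Gcn4 activates, had 0.027 and 0.15 without passing. The call of *DUS1* was lost when H2B K37A replicate 2 or any single wild-type array was left out, those of *RPG1* and *YIH1* also without H2B K37A replicate 3, and that of *TAD3* whichever single array was left out. With every probe set of the array tested these 4 calls were lost as well, at limma adjusted p of 0.0728 for *DUS1*, 0.110 for *RPG1*, 0.0895 for *YIH1* and 0.117 for *TAD3*. The calls of *RPG1* and *TAD3* were also lost with the replicate block, and that of *TAD3* with an intensity trend. Over all probe sets the calls numbered 7 without H2B K37A replicate 2 and 2 without wild-type replicate 2, so that these losses were shared by most of the genes called.

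Most markers of growth state were lower in H2B K37A cells. Of 28 genes that cells raise as glucose runs out, 19 were lower, beside 8.08% of all probe sets, 0 were higher and 9 did not pass. Among the 28 were genes of glycogen storage, stress and growth without glucose, and the median was -0.56. The list is not independent evidence of its direction, since *GLC3*, *GAC1*, *CAT8*, *RGI2* and *MTH1* had already been picked out from these same arrays as lower in H2B K37A cells. *CAT8*, an activator of gluconeogenic genes, and *RGI2*, a gene of respiratory growth, fell to ratios of 0.424 and 0.379, with limma adjusted p of 0.0224 and 0.0355. Theirs were the largest differences of the 28. The mean signal of *RGI2* in H2B K37A cells was 6.22, below the background level of 6.30, beside 7.62 in wild-type cells. The size of its ratio, and so its rank among the 28, is therefore uncertain. Among the 9 that did not pass, *FBP1*, *MLS1*, *HSP12* and *ICL1* differed by 0.0080, -0.040, 0.029 and -0.20. Their limma adjusted p were 0.965, 0.878, 0.932 and 0.217. The rest of the 9 lay between -0.20 and -0.12. The call of *CAT8* was lost without H2B K37A replicate 2 or wild-type replicate 1 or 2, and that of *RGI2* when any array other than H2B K37A replicate 1 was left out or when every probe set of the array was tested (limma adjusted p = 0.0607), where *CAT8* still passed. The centred mean of the 28 was -0.10, -0.27 and -0.48 on the H2B K37A arrays and 0.47, 0.24 and 0.15 on the wild-type arrays. Replicate 1 had the highest mean within either strain for the markers, the mitochondrial synthetases and the mitochondrial ribosomal proteins. Between strains the means of these lists differed by -0.57, -0.075 and 0.065 in that order, so the ribosomal proteins went the other way. Over all 5449 genes the centred mean was also highest on wild-type replicate 1, with 0.027, 0.00047 and -0.017 on the wild-type arrays. On the H2B K37A arrays it was -0.00094, -0.011 and 0.00064. Wild-type replicates 2 and 3 had 0.24 and 0.15 for the markers, but 0.0015 and 0.017 for the synthetases. The part of growth state in the values of the synthetase genes was not tested.

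**Figure D4:**
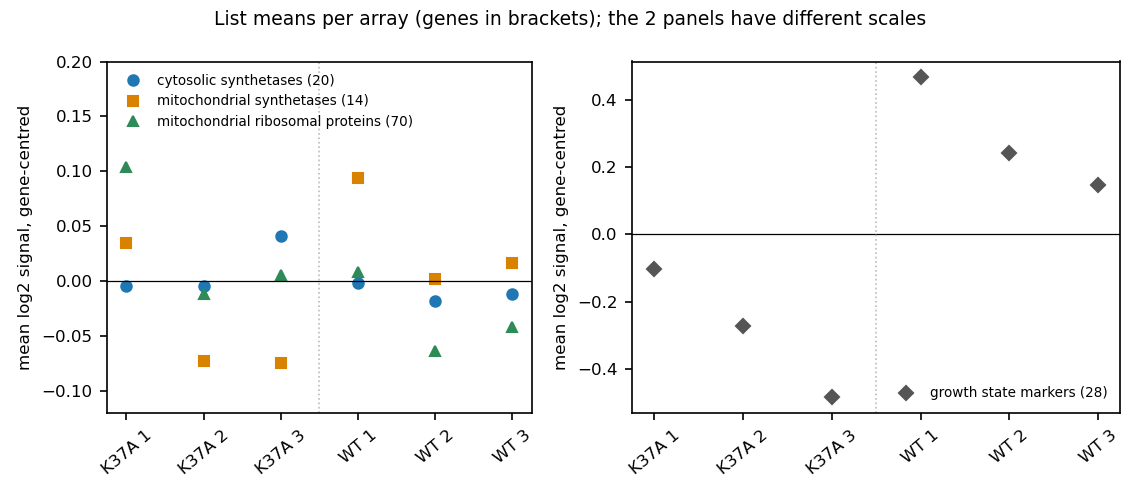
Mean log2 signal of each list on each array, centred gene by gene over the 6 arrays, with the H2B K37A arrays left of the wild-type (WT) arrays and the number of genes in brackets. The mitochondrial synthetases run from -0.074 to 0.035 in H2B K37A cells and from 0.0015 to 0.094 in wild-type cells, and the growth state markers, on a wider scale, from -0.48 to -0.10 and from 0.15 to 0.47.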

How the data were processed

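The authors hybridized biotinylated cRNA of 6 cultures to Yeast Genome 2.0 arrays (Affymetrix) and deposited log2 signals made with RMA in Affymetrix Expression Console, per the submitters' processing notes. No version is given for either in the sources read. RMA corrects background, equalizes the distribution of probe signals over arrays and summarises each probe set, so that a shift shared by most transcripts is removed. The labels give histones as the source material although the molecule is total RNA, as in the methods. The table holds 10928 probe sets, of which 5498 were matched by gene ID to the S. cerevisiae table of assembly R64 and tested, without a filter. A further 1747 probe sets with other names gave the background, whose 95th percentile was 6.30, and all 34 members lay above it. *HTB2* and *HTA2*, deleted in both strains, lay above it too. They had 10.50 and 13.94 in H2B K37A cells and 10.49 and 14.01 in wild-type cells. A signal above background thus does not by itself show that the named transcript was read. No build is named, so no coordinates are given, and no sequences were used here.

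limma 3.58.1 in R 4.3.3 (lmFit, eBayes) was fitted on strain alone, with two-sided p-values adjusted by Benjamini-Hochberg over the 5498 probe sets and a threshold of 0.05. The fit was run on simulated arrays with known differences. Their noise was independent between probe sets and drawn at the variances that limma estimated. Such arrays cannot show how the fit behaves when many genes of an array shift together. A gene with several probe sets was counted by the brightest. The precision is limited by having 3 arrays per strain, for which exact permutation of 1 gene's values gives a p of 0.1 at the least. The members and the lists were chosen with earlier results of these data known. By rule, all members could be named, with every array's value for the 4 largest differences of each compartment, and from other lists up to 4 called genes by size were eligible. Array values of *MSE1*, *SLM5* and *PET112* were decided on after their values were seen. So was the naming of *ARC1*, *GCN2*, *GCN4*, *HIS4*, *ARG1*, *FBP1*, *MLS1*, *HSP12*, *ICL1*, *HTA2* and *HTB2*. As alternatives, every probe set of the array was tested, dim probe sets were removed, signals were quantile normalized again or centred on the median, the fit took the replicate number as a block, a trend with intensity or weights for arrays, probe sets of the same gene were averaged, and each array was left out.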

Additional observations from a re-analysis of the deposited data

How the results depend on the processing

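Under 15 alternatives the number of cytosolic synthetase genes called stayed at 0, except 1 with an intensity trend, which was *KRS1* (higher). The number of mitochondrial genes called was 2 with the replicate block (*MSF1* and *AIM10*, where 17.2% of all probe sets were called), 5 with array weights (these, *MSR1*, *MSE1* and *SLM5*, where 35.6% were called), 0 to 4 when a single array was left out and 0 otherwise, and all calls were lower. The block changed no call of a cytosolic gene. Same-numbered arrays had correlations of their deviations from the strain means of 0.40, -0.29 and 0.23 for replicates 1, 2 and 3. Arrays of unlike number had -0.50 to 0.36. The sample titles give only a replicate number, and so few values cannot decide whether same-numbered arrays form pairs. Over all S. cerevisiae probe sets, 798 calls became 249 when all probe sets of the array were tested, 1956 with array weights, 129 without wild-type replicate 1 and H2B K37A replicate 3 together (an alternative added with the values in view), and 2 (wild-type replicate 2) to 1140 (H2B K37A replicate 1) when a single array was left out. Both medians kept their sign under every alternative, and 24 of 34 members kept theirs. The others had differences of -0.030 to 0.034. *MSK1* was 0.0089 after quantile normalization again, 0.010 after median centring and 0.020 without both arrays named above, and *DED81* was 0.015 after median centring. With array weights *FRS1*, *GRS1*, *MES1* and *THS1* were -0.0015, -0.022, -0.0094 and -0.0014. Without both arrays *FRS1*, *GRS1*, *HTS1* and *MES1* were -0.0022, -0.0099, -0.0023 and -0.013. With a single array left out, the ranges were -0.0098 to 0.0039 for *DED81*, -0.039 to 0.021 for *MSK1*, -0.088 to 0.0036 for *MSY1*, -1.67e-05 to 0.020 for *FRS1*, -0.0035 to 0.043 for *GLN4*, -0.019 to 0.019 for *GRS1*, -0.0084 to 0.017 for *MES1*, -0.012 to 0.019 for *THS1* and -0.0081 to 0.028 for *VAS1*. Leaving out a single array moved the difference of 25 of 34 members by over 1.5 times or turned its sign, among them *CDC60* (0.025 to 0.071), *NAM2* (-0.079 to -0.0078), *MSW1* (0.010 to 0.087) and *DIA4* (-0.15 to -0.042). The other 9 were *KRS1*, *WRS1*, *DPS1*, *ALA1*, *MSF1*, *AIM10*, *MSR1*, *MSE1* and *SLM5*. The cause of these differences was not tested. The number of arrays, 3 per strain, limits every value.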
